A study of Rattus norvegicus with 12 samples.

Results

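The ligands, receptors and one inhibitor of the epidermal growth factor (EGF) pathway, together with the receptor of hepatocyte growth factor, were followed across 12 single-colour arrays of rat liver cells. The genes were the ligands Areg, Ereg, Hbegf, Tgfa and Btc, the receptors Egfr, Erbb2 and Erbb3, the inhibitor Errfi1, and Met. Every non-control probe whose gene name in the array files equals one of these 10 symbols was taken, which gave 16 of 45598 probes and 10 of 36172 gene names. The 4 groups held 3 arrays each, all from F344 rats. LN111, LN511 and Mat were small hepatocytes, a hepatocytic progenitor cell of the rat liver, that had been sorted for CD44 at day 9 of primary culture, expanded on Matrigel and, at passage 2, kept for 3 h on dishes coated with laminin-111, laminin-511 or Matrigel, a basement membrane extract. The medium of these cultures was free of serum and held EGF at 10 ng/mL and nicotinamide at 10 mM, besides dexamethasone and insulin. MH, the control, were mature hepatocytes taken straight from fresh livers, with no time in culture stated. Nothing in the labels says that the replicates of a group are different animals or cultures, so each p-value reflects only the scatter of these 12 samples, part of which may be technical.

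The EGF family ligands followed here are made as membrane-bound precursors and cut free by metalloproteases. They bind EGFR, which then pairs with itself or with another ERBB receptor. ERBB2 binds no ligand and serves as the preferred partner, while ERBB3 has a weak kinase and couples its partners to PI3 kinase. ERRFI1 (also called MIG6) binds the EGFR kinase domain and blocks it, and its gene is itself induced by EGFR signalling. MET is the receptor of HGF, and both HGF and EGFR ligands are mitogens of hepatocytes in culture and in the regenerating liver.

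The array files place each 60-base probe in the rn4 build, and the ligand probes lie close together on chromosome 14 for Areg (chr14:18466438-18466497, minus strand), Ereg (chr14:18521343-18522341, minus strand) and Btc (chr14:18233596-18233655, plus strand). The Ereg interval covers 999 bases for a probe of 60, so this probe joins sequence from both sides of an intron. Hbegf was read at chr18:29143627-29143686 on the minus strand, and Tgfa at 3 places on the plus strand of chromosome 4, starting at 120432206, 120435764 and 120437505. Egfr was read at chr14:97788051-97788110 (A_44_P346408), chr14:97793466-97793525 (A_44_P1112991) and chr14:97760372-97760431 (A_44_P1112996), Erbb2 at chr10:87242482-87242541, all on the plus strand, and Erbb3 at chr7:1858095-1858154 on the minus strand. The Errfi1 probes began at 168024463 (A_44_P1156642) and 168025720 (A_43_P14882) on chromosome 5, and the Met probes at 43213390 (A_44_P1104528) and 43202449 (A_44_P318553) on chromosome 4, all on the plus strand. Which exon each probe lies in was not analysed here. The probes of 3 ligands are printed because the values below rest on each of them alone or, for Tgfa, on a probe that parts from the others of its gene.
Ereg, A_44_P540992: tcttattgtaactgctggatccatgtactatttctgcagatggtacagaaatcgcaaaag
Btc, A_64_P043767: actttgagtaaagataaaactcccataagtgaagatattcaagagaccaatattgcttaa
Tgfa, A_64_P122865: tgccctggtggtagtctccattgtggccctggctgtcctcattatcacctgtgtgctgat

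Upstream sequence from RefSeq (build GRCr8) was matched by symbol for 8 of the 10 genes, in windows of 250 bases before and 50 after the gene start. Each window was searched on both strands for the cyclic AMP response element TGACGTCA, its half-site TGACG (which lies within it), the AP-1 site TGANTCA, the TATA box TATAAA and the GC box GGGCGG. Areg and Errfi1 are printed because Areg held more matches than the other ligands found, Errfi1 is the inhibitor of the set, and the values of these genes differed in opposite directions between cultured cells and MH. The first stretch is chr14:17265672-17265761 (minus strand), from 120 to 31 bases before the Areg start, and the second is chr5:166606751-166606820 (plus strand), from 90 to 21 bases before the Errfi1 start. Capitals mark motif matches.
Areg: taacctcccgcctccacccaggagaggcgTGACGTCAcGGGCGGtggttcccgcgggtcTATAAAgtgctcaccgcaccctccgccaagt
Errfi1: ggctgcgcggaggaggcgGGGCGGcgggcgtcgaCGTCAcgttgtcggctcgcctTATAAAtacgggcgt
The full TGACGTCA began 91 bases before the Areg start and was found in 1 of the 8 windows, against 1.83% of 33469 rat promoters. Errfi1 held the half-site on the other strand 56 bases before its start, a motif of 21.2% of all promoters. Hbegf held the half-site too, 193 bases before its start. The TATA box occurred in the Areg and Errfi1 windows (14.2% of all promoters) and the GC box in 6 of the 8 (33.1%). TGANTCA was found in 0 of the 8 windows and in 7.33% of all promoters. These matches are descriptions of letters, with no measurement of binding.

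Values below are log2 processed signals relative to the 75th percentile of the same array, so 0 is the level of the probe at that percentile, and a level is compared only within a probe. Signal was well above background for 52.18% to 62.75% of the 58717 spots, depending on the array, and no spot was saturated. LN111 replicate 3 was the noisiest array, with a median coefficient of variation of 11.1% between repeated spots, against 3.16% to 4.21% on the other 11. Of the 6 hepatocyte markers, 5 were lower in cultured cells than in MH, and their summed signal (75th percentile = 1) was 567 to 1352 against 2427 to 2874. All 5 biliary and progenitor markers, the sort marker Cd44 among them, were higher (sums of 67.3 to 377 in cultured cells and 0.920 to 0.962 in MH), as were both mesothelial markers on the array (30.7 to 142 and 0.0964 to 0.173). All 5 Kupffer cell markers were lower in cultured cells (0.385 to 2.84, against 66.8 to 78.9 in MH), as were all 5 sinusoidal endothelial markers (0.270 to 2.70, against 37.0 to 40.9). Marco and Cd5l, and Lyve1, Plvap and Pecam1, were well above background on 0 of the 9 cultured arrays. Of 5 stellate cell and fibroblast markers 3 were higher in cultured cells, with sums of 179 to 330 on LN111, 9.56 to 43.1 on LN511, 79.0 to 120 on Mat and 5.46 to 6.83 in MH. Lrat (-1.85 ± 0.82) and Reln (0.20 ± 0.83) did not pass, and Col1a1 had the highest mean signal of the 5 on each coating. In these bulk samples more cells of a type and more RNA per cell cannot be told apart, and the part of these other cell types in the results below was not tested.

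Small hepatocytes in culture, as the mean of the 3 coatings, were compared with MH, the study's control. In cultured cells the ligands Areg, Ereg and Hbegf and the partner receptor Erbb2 were higher, and Egfr, Erbb3, both Errfi1 probes and the most 5′ Tgfa probe were lower. The dim ligand Btc was higher too, a call that was lost with normexp background correction, and Met was lower, a call that was lost with quantile scaling and without scaling, as given below. Of the 16 probes 14 were tested, and 12 passed (limma, adjusted p under 0.05), 5 higher and 7 lower in cultured cells. Of all 23624 probes tested, 71.9% passed, 35.1% higher and 36.7% lower, so the number of members that passed is near the share of all probes. The 5 higher probes entered the test through cultured arrays alone, since none was well above background in MH, and their count is therefore no support for a direction. The median difference of the 14 tested probes was -0.74, against -0.02 over all probes. Tgfa, Egfr and Errfi1 entered that median with several probes each. It therefore leans on these genes, and a median over genes was not taken.

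**Figure D1:**
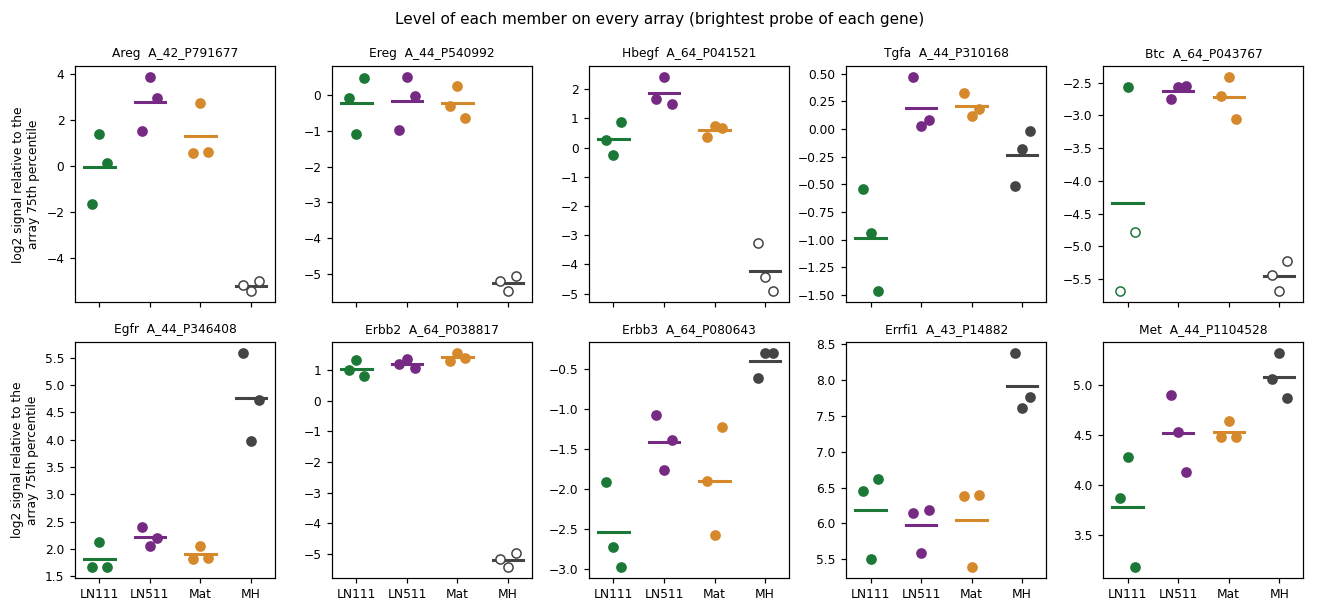
Level of each gene on every array (log2 signal relative to the array's 75th percentile, brightest probe of each gene, each panel with its own scale). Points are arrays in the order LN111, LN511, Mat and MH, bars are group means, and open points were not well above background; Areg, Ereg, Hbegf, Btc and Erbb2 are open on all 3 MH arrays, and Egfr, Erbb3 and Errfi1 lie highest on the MH arrays.

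Areg, which encodes amphiregulin, an EGFR ligand, read -1.65, 1.39 and 0.12 on LN111, 1.53, 3.85 and 2.96 on LN511, 0.58, 2.72 and 0.58 on Mat, and -5.16, -5.44 and -5.00 on MH. All 9 cultured arrays lay above the 3 MH arrays, where the probe was not well above background. Against the lowest measurable signal of the MH arrays, Areg was at least 22.5-fold higher in cultured cells (fitted difference 6.54 ± 0.68 SE, limma adjusted p = 1.06e-05). Its spread within coatings was the widest of the tested probes apart from Btc on LN111, with SDs of 1.52, 1.17 and 1.23 on LN111, LN511 and Mat (n = 3 each). On each coating replicate 2 had the highest Areg signal, and on each coating replicate 2 had the lowest mean log2 level of the 6 hepatocyte markers (3.41 on LN111, 2.84 on LN511 and 3.30 on Mat, with 4.02 to 5.23 on the other 6 cultured arrays). A link between these measures was not tested.

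Ereg encodes epiregulin, a ligand of EGFR and ERBB4. It read -0.07, -1.08 and 0.48 on LN111, -0.98, 0.50 and -0.03 on LN511, -0.32, 0.26 and -0.64 on Mat, and -5.22, -5.50 and -5.05 on MH. The 3 coatings overlapped one another and none overlapped MH, where the probe was not well above background. Ereg was at least 7.67-fold higher in cultured cells (5.05 ± 0.37, limma adjusted p = 7.02e-07).

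Hbegf encodes heparin-binding EGF-like growth factor. Its levels were 0.27, -0.25 and 0.86 on LN111, 1.67, 2.41 and 1.50 on LN511, 0.38, 0.72 and 0.68 on Mat, and -3.28, -4.43 and -4.92 on MH. The LN511 arrays were the highest 3 of the 12, and the MH arrays, all at background, the lowest 3. Cultured cells exceeded MH at least 16.7-fold (5.13 ± 0.35, limma adjusted p = 4.08e-07).

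Btc encodes betacellulin, another ligand of EGFR and ERBB4. It stayed dim, at -5.67, -2.56 and -4.77 on LN111, -2.75, -2.57 and -2.55 on LN511, -2.70, -2.42 and -3.05 on Mat, and -5.44, -5.69 and -5.22 on MH. It was well above background on 7 of 9 cultured arrays, the exceptions being LN111 replicates 1 and 3, and on 0 of 3 MH arrays, so that LN111 overlapped MH. The difference of 2.22 ± 0.50 passed (limma adjusted p = 0.00219) but fell to 0.13 with normexp background correction (adjusted p = 0.52), within a range of 2.95e-05 to 0.52 over the alternatives. No fold is given for the 9 arrays because their mean lay below the floor set by MH.

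Tgfa encodes transforming growth factor alpha, the EGFR ligand that hepatocytes themselves make, and its 3 probes disagreed. The probe at transcript position 443 (A_64_P122865, printed above) read -0.78, -0.76 and -0.64 on LN111, -0.52, -0.61 and -0.52 on LN511, -0.81, -0.97 and -0.91 on Mat, and 0.55, 0.52 and 0.53 on MH. Every cultured array was below every MH array, and the probe was lower in cultured cells by a fitted -1.26 ± 0.09, or 2.39-fold (limma adjusted p = 5.27e-07). Without scaling between arrays the difference was -0.36 and did not pass (adjusted p = 0.151, range over the alternatives 1.6e-07 to 0.151).

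The Tgfa probe at position 3952 (A_44_P310168) read -0.54, -0.94 and -1.47 on LN111, 0.47, 0.03 and 0.09 on LN511, 0.33, 0.12 and 0.18 on Mat, and -0.51, -0.18 and -0.02 on MH. LN111 lay below MH while LN511 and Mat lay above it, so the cultured mean hardly differed from MH (0.043 ± 0.19, limma adjusted p = 0.851, 95% interval -0.38 to 0.47). The last probe, at position 2211 (A_44_P1104938), ranged from -3.48 to -2.38 over the cultured arrays and from -3.10 to -1.59 over MH, with 1 MH array at background. Its difference of -0.68 ± 0.30 did not pass (limma adjusted p = 0.0654) but passed at -1.10 (adjusted p = 0.00434) without MH replicate 1 and at -0.75 (adjusted p = 0.0457) without Mat replicate 1, and it was 0.22 in unscaled values. It also passed with normexp (-0.59, adjusted p = 0.00458) and with quantile scaling (-0.77, adjusted p = 0.0436; range of adjusted p over the alternatives 0.00434 to 0.588).

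Among the receptors, Egfr was lower and Erbb2 higher in cultured cells. Egfr probe A_44_P346408 read 1.68, 2.13 and 1.67 on LN111, 2.40, 2.05 and 2.21 on LN511, 1.81, 2.05 and 1.84 on Mat, and 5.59, 3.98 and 4.73 on MH. The cultured arrays spanned less than 1 log2 unit and all lay below MH, whose own spread was wider (SD 0.81, n = 3). The difference was -2.79 ± 0.27, a 6.91-fold lower level in cultured cells (limma adjusted p = 6.3e-06).

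The second measured Egfr probe, A_44_P1112991, read 0.67, 1.05 and 0.42 on LN111, 1.14, 1.06 and 1.27 on LN511, 1.11, 1.48 and 0.95 on Mat, and 5.32, 3.50 and 4.29 on MH. It separated the groups in the same way and differed by -3.36 ± 0.31, a 10.2-fold lower level in cultured cells (limma adjusted p = 4.13e-06). The remaining Egfr probe, A_44_P1112996, was not well above background on any of the 12 arrays and was not tested.

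Erbb2, the ligandless partner receptor, read 1.01, 1.32 and 0.79 on LN111, 1.19, 1.37 and 1.06 on LN511, 1.29, 1.56 and 1.37 on Mat, and -5.15, -5.42 and -4.98 on MH. MH was not well above background on any array, and the cultured arrays spanned less than 1 log2 unit. Cultured cells were at least 20.6-fold higher (6.40 ± 0.14, limma adjusted p = 4.38e-10).

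Erbb3, the receptor that recruits PI3 kinase, read -1.92, -2.73 and -2.98 on LN111, -1.08, -1.77 and -1.40 on LN511, -1.90, -2.58 and -1.23 on Mat, and -0.62, -0.30 and -0.30 on MH. All cultured arrays were below all MH arrays, with LN511 nearest to MH. The difference of -1.55 ± 0.29 (2.92-fold lower in cultured cells) passed, with limma adjusted p = 7.95e-04. In unscaled values it was -0.65 and did not pass (adjusted p = 0.0794, range over the alternatives 3.04e-04 to 0.0794).

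Errfi1, the feedback inhibitor of EGFR, was lower in cultured cells on both its probes. Probe A_43_P14882 read 6.45, 5.51 and 6.62 on LN111, 6.14, 5.58 and 6.19 on LN511, 6.38, 5.39 and 6.39 on Mat, and 8.38, 7.62 and 7.77 on MH. Probe A_44_P1156642 read 2.01, 1.52 and 2.29 on LN111, 1.89, 1.31 and 2.33 on LN511, 1.90, 0.96 and 1.91 on Mat, and 4.22, 3.19 and 3.56 on MH. On both probes replicate 2 was the lowest array of every group, MH included, and the cultured arrays did not overlap MH. The differences were -1.85 ± 0.30 (adjusted p = 2.75e-04) and -1.87 ± 0.30 (adjusted p = 2.74e-04) in limma, equal to 3.60-fold and 3.65-fold lower levels in cultured cells.

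Met, read by probe A_44_P1104528, gave 3.87, 4.28 and 3.18 on LN111, 4.89, 4.52 and 4.13 on LN511, 4.47, 4.64 and 4.48 on Mat, and 5.05, 5.32 and 4.87 on MH. LN111 and Mat lay below MH, and LN511 replicate 1 overlapped it. The difference of -0.81 ± 0.23 passed (limma adjusted p = 0.0085), but it was -0.067 with quantile scaling (adjusted p = 0.821) and 0.091 in unscaled values (adjusted p = 0.821; range over the alternatives 0.00264 to 0.821). The median of all probes was 0.18 with quantile scaling and 0.88 unscaled, so Met lay below that median in both. With the slide as a block it did not pass either (-0.74, adjusted p = 0.165). The other Met probe, A_44_P318553, was well above background on 2 Mat arrays only and was not tested.

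**Figure D2:**
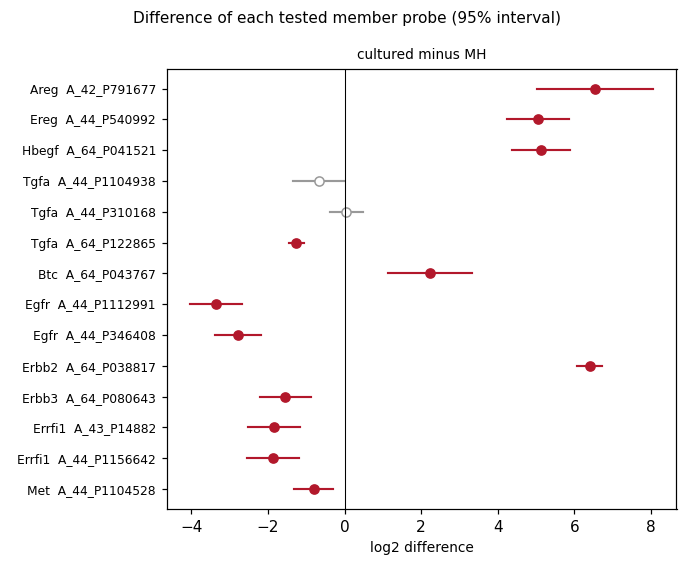
Log2 difference of each of the 14 tested probes, cultured minus MH, with the 95% interval of the limma fit. Filled red points passed (adjusted p under 0.05) and open grey points did not; 5 probes lie right of 0 and 7 left of 0 among those that passed, and the 2 open points are both Tgfa.

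The scaling matters to all of these differences, since the median of all probes was -0.02 in the main scaling, -0.15 with normexp, 0.18 with quantile scaling and 0.88 with none. The share of called probes that were higher in cultured cells was 40% with normexp, 56.2% with quantile scaling and 78.5% with none, against 48.9% in the deposited value table scaled as in the main setting. Relative to those medians, Egfr, Erbb3, Errfi1 and Met stayed lower and Areg, Ereg, Hbegf and Erbb2 stayed higher under all 4 scalings. The 12 arrays lay on 2 slides, one with all MH arrays and Mat replicates 1 and 2, the other with the remaining 7. LN111 and MH, and LN511 and MH, therefore share no slide, and only the Mat arrays link them. Within the first slide Mat replicates 1 and 2 were set against the 3 MH arrays. There Areg differed by 6.85, Ereg by 5.23, Hbegf by 4.76, Btc by 2.89 and Erbb2 by 6.61, while Egfr differed by -2.84 and -3.08, Erbb3 by -1.84, Errfi1 by -2.03 and -2.23 and Tgfa A_64_P122865 by -1.42, and all of these passed.

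Each coating was then set against MH on its own. LN111 differed from MH on 12 of 14 probes, 4 higher and 8 lower, where 65.5% of all probes passed (31.7% higher and 33.9% lower). LN511 differed on 11, 5 higher and 6 lower, where 67% of all probes passed (33.2% higher and 33.7% lower). Mat also differed on 11, 5 higher and 6 lower, where 66% of all probes passed (31.1% higher and 34.9% lower). The 3 comparisons share the MH arrays. Areg was at least 8.58-fold higher on LN111, at least 60.8-fold on LN511 and at least 21.7-fold on Mat, with adjusted p of 3.37e-04, 1.53e-05 and 6.82e-05 in limma. Hbegf was at least 10.9-fold higher on LN111, 32.2-fold on LN511 and 13.4-fold on Mat, and Erbb2 at least 18.2-fold on LN111, 20.4-fold on LN511 and 23.5-fold on Mat.

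Egfr (A_44_P346408) was lower on every coating, by a fitted -2.94 on LN111, -2.55 on LN511 and -2.87 on Mat. Errfi1 (A_43_P14882) was lower by a fitted -1.73 on LN111, -1.95 on LN511 and -1.87 on Mat. With quantile scaling the Errfi1 difference did not pass on LN111 (-0.69, adjusted p = 0.111) or Mat (-0.82, adjusted p = 0.0658). On Mat it did not pass in unscaled values either (-0.45, adjusted p = 0.261), where the median of all probes was 1.36. Erbb3 was -2.13 ± 0.36 on LN111 (limma adjusted p = 4.41e-04), -1.01 ± 0.36 on LN511 (adjusted p = 0.0302) and -1.50 ± 0.36 on Mat (adjusted p = 0.00411). The LN511 value did not pass in unscaled values (-0.56, adjusted p = 0.236), nor without LN511 replicate 2 (adjusted p = 0.102), LN511 replicate 3 (0.0644), MH replicate 2 (0.0757) or MH replicate 3 (0.0775). In unscaled values the Mat difference of Erbb3 was -0.08 and did not pass (adjusted p = 0.861).

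Met, Btc and the distal Tgfa probe were called on some coatings and not on others. Met passed on LN111 (-1.30 ± 0.28, limma adjusted p = 0.00193) and not on LN511 (-0.56 ± 0.28, adjusted p = 0.096) or Mat (-0.55 ± 0.28, adjusted p = 0.105). With quantile scaling Met was 0.20 on both LN511 and Mat, where the median of all probes was 0.18 in each, and -0.60 on LN111, where it did not pass (adjusted p = 0.109). With array weights it passed on LN511 (-0.77, adjusted p = 0.00841) and Mat (-0.55, adjusted p = 0.0293), and without LN511 replicate 1 it passed on LN511 (-0.75, adjusted p = 0.0499). Btc passed on LN511 (2.83 ± 0.61, adjusted p = 0.00198) and Mat (2.73 ± 0.61, adjusted p = 0.00255), at least 1.44-fold and 1.34-fold higher, and not on LN111 (1.11 ± 0.61, adjusted p = 0.131). With normexp the Btc difference did not pass on LN511 (0.49, adjusted p = 0.0667) or Mat (0.12, adjusted p = 0.627). Without LN111 replicate 1, Btc on LN111 was 1.78 and passed (adjusted p = 0.0134). Tgfa A_44_P310168 was lower than MH on LN111 (-0.75 ± 0.24, adjusted p = 0.0169) and did not pass on LN511 (0.43 ± 0.24, adjusted p = 0.13) or Mat (0.44 ± 0.24, adjusted p = 0.119). With the slide as a block neither Met (-1.22, adjusted p = 0.0923) nor this Tgfa probe (-0.70, adjusted p = 0.238) passed on LN111. The Tgfa call on LN111 was also lost without LN111 replicate 3 (adjusted p = 0.0571) and without MH replicate 3 (adjusted p = 0.0621).

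The comparison of coatings asked whether 3 h on a given laminin or on Matrigel shifted these genes, in a fit of the 9 cultured arrays. LN111 cells had less Hbegf and less of the distal Tgfa transcript signal than LN511 cells. No member passed between LN111 and Mat or between LN511 and Mat. A moderated F test over the 3 coatings passed for the same probes, Hbegf (adjusted p = 0.0347) and Tgfa A_44_P310168 (adjusted p = 0.023), 2 of 14, against 10.8% of all 22315 probes tested. The F test call of Hbegf was lost without LN111 replicate 1 or any single LN511 or Mat array (adjusted p = 0.0598 to 0.104), and that of Tgfa without LN511 replicate 2 or 3 or Mat replicate 1 or 3 (0.0526 to 0.0589).

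**Figure D3:**
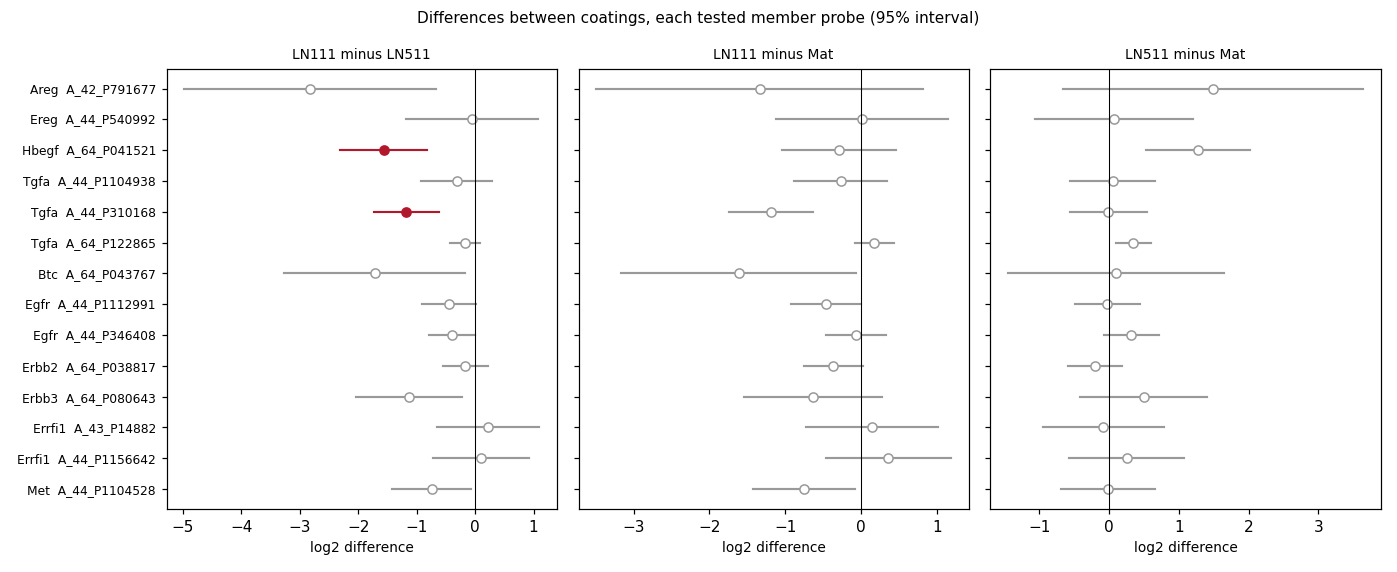
Log2 differences between coatings for the 14 tested probes, with 95% intervals of the fit over 9 arrays (left panel LN111 minus LN511, middle LN111 minus Mat, right LN511 minus Mat). Filled red points passed, and they are Hbegf (-1.57) and Tgfa A_44_P310168 (-1.18) in the left panel; the interval of Areg is the widest in each panel.

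Between LN111 and LN511, 2 of 14 probes passed, both lower on LN111, and 15.4% of all probes did (6.96% higher and 8.45% lower), so the count of members is near the background. Hbegf averaged 0.29 ± 0.56 on LN111 and 1.86 ± 0.48 on LN511 (SD, n = 3 each), with no overlap. The difference was -1.57 ± 0.32 SE (2.96-fold lower on LN111, limma adjusted p = 0.0166). Tgfa A_44_P310168 averaged -0.98 ± 0.46 on LN111 and 0.20 ± 0.24 on LN511, again with no overlap, and differed by -1.18 ± 0.24 (2.26-fold, adjusted p = 0.0154). The other Tgfa probes did not pass, with -0.18 at position 443 and -0.32 at position 2211. Both calls were lost in unscaled values (adjusted p = 0.0699 and 0.246) and in a fit of the second slide's 7 arrays alone (0.0575 and 0.0582), where the differences are the same and fewer arrays measure the spread. Over the alternatives the adjusted p ranged from 0.0137 to 0.0699 for Hbegf and from 0.00555 to 0.246 for Tgfa.

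The summed stellate cell and fibroblast markers separated these coatings too, at 179 to 330 on LN111 and 9.56 to 43.1 on LN511. Mean levels on LN111 and LN511 were 7.78 and 3.53 for Col1a1, 2.51 and -0.86 for Des, and 2.27 and -1.72 for Acta2. Reln was level (1.52 and 1.51), and Lrat was lower on LN111 (-0.68 and 0.26). The part of these cells in the Hbegf and Tgfa differences was not tested. Without LN111 replicate 2 the number of called members was 6, all lower on LN111, and 20.1% of all probes passed. One of the added probes was Areg, which did not pass with all arrays weighted alike (-2.82 ± 0.93, limma adjusted p = 0.0793, 95% interval -4.98 to -0.67) although the 3 LN111 arrays lay below the 3 LN511 arrays. Areg passed at -3.54 without that replicate (adjusted p = 0.0397) and at -3.23 with array weights (adjusted p = 0.0372). With the replicate number as a block it passed at -2.82 (adjusted p = 0.00275). Btc was another, at -1.72 ± 0.67 (adjusted p = 0.126) with all arrays. Without that replicate it passed (adjusted p = 0.00342), but both remaining LN111 arrays were at background, so that no size is given. Over the alternatives the adjusted p ranged from 0.00275 to 0.209 for Areg and from 0.00342 to 0.283 for Btc. Erbb3, at -1.13 ± 0.40, did not pass (adjusted p = 0.0933).

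Between LN111 and Mat, 0 of 14 member probes passed in limma, as did 0% of all probes. At an unadjusted p under 0.05 there were 4 member probes (Tgfa A_44_P310168, Btc, Egfr A_44_P1112991 and Met) and 12.3% of all probes. Tgfa A_44_P310168 had the lowest adjusted p (0.324), with a difference of -1.19 ± 0.24 and no overlap between the LN111 and Mat arrays. The 14 differences ran from -1.62 (Btc) to 0.35 (Errfi1 A_44_P1156642), and their 95% intervals reached from -3.49 to 1.18.

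Between LN511 and Mat, 0 of 14 passed, against 6.07% of all probes (4.71% higher and 1.36% lower). At an unadjusted p under 0.05 there were 2 member probes (Hbegf and Tgfa A_64_P122865) and 20.1% of all probes. Hbegf was 1.27 ± 0.32 higher on LN511 with no overlap, and did not pass (limma adjusted p = 0.0622). Areg averaged 2.78 ± 1.17 on LN511 and 1.29 ± 1.23 on Mat (SD, n = 3 each), with overlap, and the difference of 1.48 ± 0.93 SE did not pass (adjusted p = 0.445). Arrays of replicate numbers 1 and 2 deviated together in these 2 groups, those of number 3 only weakly. With the number as a block Areg passed (adjusted p = 0.0405), so that 1 member probe was called, and 10.5% of all probes were. The 14 differences ran from -0.20 (Erbb2) to 1.48 (Areg), with 95% intervals reaching from -1.45 to 3.64. Adjusted p over the alternatives ranged from 0.00154 to 0.525 for Hbegf and from 0.00766 to 0.772 for Areg.

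In order of mean level, Areg and Hbegf ran LN511, Mat, LN111 and MH, and in the main fit only the neighbouring pair with MH passed. The step between LN511 and Mat passed for Areg with the replicate number as a block (limma adjusted p = 0.0405). With array weights that step passed for Areg (adjusted p = 0.00766) and for Hbegf (adjusted p = 0.00154). Egfr A_44_P346408 ran MH, LN511, Mat and LN111, and Erbb3 MH, LN511, Mat and LN111, in both with only the step below MH passing in the main fit. Erbb2 ran Mat, LN511, LN111 and MH, and Met MH, Mat, LN511 and LN111. In Met no step between neighbours passed in the main fit. Its step between MH and Mat passed with array weights (adjusted p = 0.0293) and with the replicate number as a block (adjusted p = 0.0451). Ereg averaged -0.22 on LN111, -0.17 on LN511 and -0.23 on Mat, and no pair of coatings passed.

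Other genes of the pathway were taken from lists of related function, with the brightest tested probe standing for a gene. Across all 19108 genes tested in this way 72.2% passed between cultured cells and MH, and the median difference was -0.04. Of 7 other EGF family genes 5 were tested and all passed, 3 higher and 2 lower (median 1.33). The neuregulin genes Nrg1, whose product is a ligand of ERBB3, and Nrg2 were higher in cultured cells by 3.88 ± 0.31 and 1.70 ± 0.16, and Egf and Nrg4 were at -3.62 ± 0.14 and -0.78 ± 0.28. Epgn, encoding the ligand epigen, passed at 1.33 ± 0.31 but was well above background on 4 of 9 cultured and 0 of 3 MH arrays. Erbb4 was not well above background on any array, and Nrg3 was not among the array's gene names.

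Of 10 genes of the HGF and MST1 axis, all tested, 4 were higher and 4 lower (median 0.74). Spint1, an inhibitor of the HGF-activating proteases, was at least 123-fold higher in cultured cells, and Plat, tissue plasminogen activator, was 7.58 ± 0.16 higher. Hgf itself was at least 10.1-fold lower and was not well above background on any of the 9 cultured arrays. Hpn, encoding the protease hepsin, which can activate HGF, was at -3.86 ± 0.67. Hgf was high where the summed Kupffer and endothelial markers given above were high, and their part in it was not tested.

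Of 9 genes that shed or process the ligands, 7 were higher and 2 lower (median 2.11). The metalloprotease genes Adam12 and Adam19 were 4.60 ± 0.39 and 4.52 ± 0.32 higher in cultured cells. Adam17, which encodes the main sheddase of several EGFR ligands, was 0.82 ± 0.11 higher. Furin and Nrdc were at -1.63 ± 0.11 and -0.43 ± 0.11.

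Of 21 adaptor and RAS to ERK genes, 8 were higher, 6 lower and 7 did not pass (median 0.09). The adaptor gene Gab2 was at least 4.68-fold higher and the kinase gene Src 3.12 ± 0.14 higher, while Pik3r1, the regulatory subunit of PI3 kinase, was at -1.90 ± 0.31 and Map2k2, the kinase MEK2, at -1.34 ± 0.11. Of 14 tested genes for receptor degradation and inhibition, 9 were higher and 3 lower (median 1.04). Socs5 was 1.91 ± 0.56 and Ptpn1, a phosphatase of receptor tyrosine kinases, 1.53 ± 0.19 higher, and Lrig2 and Ptprj were at -0.78 ± 0.18 and -0.73 ± 0.26.

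**Figure D4:**
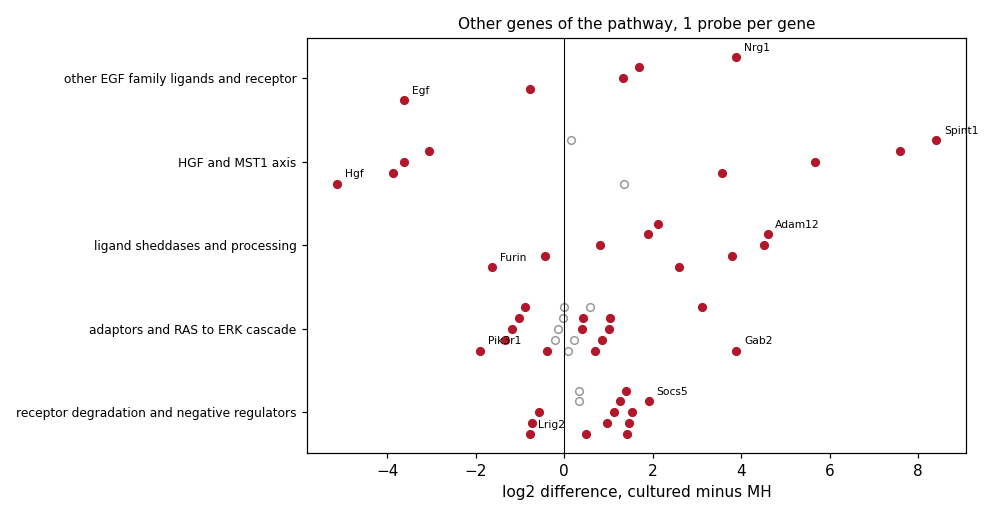
Log2 difference, cultured minus MH, of the tested genes in 5 lists of pathway genes, 1 probe per gene (vertical offsets within a list only separate the points). Filled red points passed and open grey points did not; the ends of each list are named. Positions are fitted differences, so genes at background on one side, such as Spint1 (MH) and Hgf (cultured cells), are not ranked by them.

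Between LN111 and LN511, 9 genes of these lists passed, and 15.6% of all genes did. They were 2 of 5 tested EGF family genes, 3 of 9 of the HGF and MST1 axis and 2 of 9 that shed or process ligands. Of 21 adaptor and RAS to ERK genes 1 passed, and of 14 for receptor degradation and inhibition 1. The number is not read as a result about the lists. Among the 9 genes, Nrg1 was at -1.22 ± 0.32, the protease gene St14 -1.70 ± 0.31, Spint1 -1.35 ± 0.19 and Plau (urokinase) -2.17 ± 0.43, all lower on LN111. Epgn was lower too (adjusted p = 0.0284), but it was well above background on 1 of 3 LN111 arrays, against 3 of 3 LN511 arrays, and its size is not given. Adam12 was 3.85 ± 0.51, Adam17 0.79 ± 0.14 and Cblb, a ubiquitin ligase gene, 1.47 ± 0.32 higher on LN111. Between LN511 and Mat, 5 genes passed, and 6.25% of all genes did. They were 3 of 5 tested EGF family genes and 2 of 9 that shed or process ligands. Of 9 genes of the HGF and MST1 axis, 21 adaptor and RAS to ERK genes and 14 for receptor degradation and inhibition, 0 passed. Egf (1.03 ± 0.18), Nrg4 (1.50 ± 0.35) and Rhbdf2 (0.69 ± 0.16), a regulator of ADAM17, were higher on LN511, and Adam12 was at -2.65 ± 0.51. Egf was well above background on 2 of 3 Mat arrays and Nrg4 on 1 of 3. Epgn was at least 3.82-fold higher on LN511, since it was well above background on 3 of 3 LN511 and 0 of 3 Mat arrays (adjusted p = 0.00917). Mat replicates 1 and 2 lie on the other slide, and with the slide as a block 0 of these 5 genes passed (adjusted p = 0.0578 to 0.389), as 0.255% of all genes did. Between LN111 and LN511, which share a slide, 8 genes of the lists passed with that block, and 12.4% of all genes did. Of the 9 called without the block 7 passed with it, and Nrg1 did not (adjusted p = 0.0638). Adam12 followed the order of the stellate cell and fibroblast sums over the 3 coatings, an order that Lrat and Reln did not share. The part of these cells in the Adam12 differences was not tested. Between LN111 and Mat 0 genes of the lists passed, as did 0% of all genes.

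For 4 of the genes the nearest profiles over the 12 arrays were found among 12513 genes, by the root mean square difference of levels centred on each gene's mean. Egfr A_44_P346408 lay nearest to Tnfsf13 (0.24 log2 units) and C2cd2 (0.28), and Erbb3 to Sugct (0.26) and Prrg2 (0.26). Areg lay nearest to Lgals4 (0.41) and Pof1b (0.51), and Met to Smagp (0.19) and Dusp22 (0.20). Lgals4 averaged 1.10 over the cultured arrays and -5.09 over MH, close to the 1.34 and -5.20 of Areg in shape.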

How the data were processed

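RNA (100 ng per array, per the labels' protocols) was labelled with Cy3. Per the file headers the deposited intensity is Agilent Feature Extraction's processed signal (version 10.7 per the submitters' processing notes), background-subtracted, detrended, on a linear scale and with surrogate values for low signals. The 0 or 1 marks for background, saturation and outliers are the deposited flags, another kind of value, per the file headers. The authors' deposited value table holds the same intensity within 0.0072 on the log2 scale. Its column medians were 45.1 to 61.8 on LN111, 43.6 to 49.0 on LN511, 57.5 to 90.9 on Mat and 23.6 to 27.6 on MH. It is thus linear and not centred, and a single-colour intensity has no direction.

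From the scanner intensity, log2 values minus each array's 75th percentile were computed. Spots with an outlier mark were dropped and repeated spots averaged, which kept 45489 probes and lost 109, none of them a member. A probe entered a test if some group in the fit had it well above background on each of its 3 arrays. limma 3.58.1 (lmFit and eBayes, two-sided) in R 4.3.3 was fitted to 12 arrays for comparisons with MH, in which cultured is the mean of the 3 coatings, and to the 9 cultured arrays for coatings, with Benjamini-Hochberg adjustment over all probes and a threshold of 0.05. Errors beside log2 differences are standard errors unless SD is stated. "At least N-fold" sets the brighter group's mean against the mean, over the dimmer arrays, of the probe's own signal or, where that is higher, the smallest signal on the array that counts as well above background. The number of arrays limits the precision. The fit was tested on simulated data. Coordinates of probes are rn4, per the file headers.

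All 10 genes were named in the comparison of cultured cells with MH. In the comparisons of single coatings with MH and between coatings, the text named only some members. Those were mostly members that passed in some setting or had the largest differences. The plot of log2 differences between coatings shows all 14 tested probes. From each pathway list up to 2 genes with the largest difference in each direction and those called between coatings were named, plus genes chosen after their values were seen. The value of 1 list gene called between coatings is not reported here. The members and lists were chosen with earlier results of these data known. Alternatives were 12 other processing settings, and leaving out each of the 12 arrays in turn. The slide as a block for genes of the lists was added after the data were seen.

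The main fits held no block, and the replicate number was a block in an alternative setting only. Deviations from the group means of LN511 and Mat correlated at 0.53, 0.72 and 0.12 for numbers 1, 2 and 3. They correlated at 0.47, 0.53 and 0.07 for LN111 with LN511, and at 0.53, 0.70 and 0.08 for LN111 with Mat. Number 3 was thus weakly shared in each pair of groups, and the labels do not say what the numbers mark.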

Additional observations from a re-analysis of the deposited data

Results flagged for a closer look

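The effects of LN111 and LN511 against MH differed by a test of the difference itself for 2 of 14 probes, against 15.4% of all probes. Both calls were lost in unscaled values (limma adjusted p = 0.0699 for Hbegf and 0.246 for Tgfa). They were also lost in the second slide's arrays alone (0.0575 and 0.0582). Hbegf, at background on MH, was at least 10.9-fold above it on LN111 and 32.2-fold on LN511. Its LN111 minus LN511 difference was -1.57 (limma adjusted p = 0.0166). Tgfa A_44_P310168 was at -0.75 against MH on LN111 and at 0.43 on LN511, and the LN111 minus LN511 difference was -1.18 (adjusted p = 0.0154).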

How the results depend on the processing

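Over 68 single-probe results and 1162 recomputed values, 1074 kept direction and side of the threshold, 49 lost the call, 28 gained one and 11 changed sign. The cause of each change was not tested unless stated. The strict filter needs signal on all arrays, so it leaves out Areg, Ereg, Hbegf, Btc and Erbb2, which were at background in MH. It left 7 called members for cultured cells against MH (70% of all probes), 6 for LN511 against MH (65.1%) and 6 for Mat against MH (65%). Without scaling 0 members were called between LN111 and LN511 (10.6% of all probes) and 3, all lower, between LN511 and Mat (59.6%, 12779 of 13297 probes lower). Array weights gave 4 called members between LN511 and Mat (40.8% of all probes) and 5 in the F test (35.4%). The second slide alone gave 0 between LN111 and LN511 (8.03% of all probes) and 0 in the F test (3.55%). In the F test the slide block gave 0 (6.22% of all probes), normexp 1 (10.6%) and no filter 1 (4.43%). Leaving out 1 array gave 2 to 6 called members between LN111 and LN511 (8.94% to 20.1% of all probes) and 0 to 3 in the F test (4.99% to 14%).

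With the replicate number as a block, called members numbered 1 between LN511 and Mat (all probes 2354, against 1355 without it) and 3 between LN111 and LN511, where Areg joined (-2.82, adjusted p = 0.00275; all probes 23.7%, against 15.4% without it). Met passed against MH with the block on LN511 (-0.56, adjusted p = 0.0403) and on Mat (-0.55, adjusted p = 0.0451). Not every array correlated best with its own number, as Mat replicate 3 correlated at 0.51 with LN111 replicate 1 and at 0.53 with LN511 replicate 1.

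Sign changes came mostly from scaling. Unscaled, Tgfa A_44_P1104938 was 0.22 for cultured cells against MH and 0.82 for Mat against MH, Met was 0.091 and 0.87 in those comparisons, and Tgfa A_44_P310168 was 0.075 for LN111 against MH. Each of these lay below the unscaled median of all probes, which was 0.88 for cultured cells, 1.36 for Mat and 0.79 for LN111. With quantile scaling Met was 0.20 for LN511 and 0.20 for Mat against MH, and with normexp Btc was -0.22 for LN111 against MH. Tgfa A_44_P310168, near 0 for cultured cells against MH, ranged from -0.095 to 0.15 when 1 array was left out, and was below 0 without LN111 replicate 1, LN511 replicate 1 or MH replicate 1. Signals at background in MH limit Areg, Ereg, Hbegf, Btc and Erbb2 to lower bounds.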
